A study of Mus musculus with 2 samples.

Results

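The glucocorticoid receptor gene Nr3c1 and 5 genes that are standard readouts of the active receptor, Tsc22d3, Fkbp5, Per1, Zbtb16 and Klf9, were followed in leukaemia cells of the B lineage (B-ALL, acute lymphoblastic leukaemia of mice) that differed in their NADH/NAD+ balance. The 6 genes were chosen by name, and their probes were all the non-control probes whose RefSeq accession maps to one of these symbols. That gave 7 probes, of 27115 probes for 20618 genes with a symbol. SoNar is a fluorescent protein sensor of NADH and NAD+ that is read as a ratio of its fluorescence with violet and with blue excitation, and the ratio rises with cytosolic NADH/NAD+. Populations named SoNar-high and SoNar-low were sorted by this ratio out of leukaemic bone marrow, labelled as 8 weeks of age, and RNA of each was hybridised to 1 one-colour Agilent array. In the titles the same samples are called N-myc-high and N-myc-low; genotype, strain, treatment and the number of mice behind each sort were not given in the sources used here.

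Glucocorticoids cross the cell membrane and bind the receptor in the cytosol, where HSP90 and its co-chaperones hold it ready for ligand. The bound receptor moves to the nucleus, sits on paired half-sites in DNA and raises or lowers transcription of nearby genes. In lymphoid cells this programme ends in growth arrest and death, and glucocorticoids are therefore a mainstay of treatment of B-ALL. Several of its target genes, Tsc22d3, Fkbp5 and Per1 among them, respond quickly in many cell types, and FKBP51, the product of Fkbp5, acts back on the receptor by lowering its affinity for hormone.

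With 1 array per population there was no replicate of any value, the populations could not be tested against each other, and every difference below is a description of these 2 arrays. Values are Agilent processed signals in intensity units, which are background-subtracted by the scanner software. A difference is the log2 value in SoNar-high minus that in SoNar-low, after each array was set to the 75th percentile of its probes (409 units with SoNar-high RNA and 470 with SoNar-low RNA). The software's own error of a signal, printed after ±, is its estimate for 1 spot and covers neither the sort nor the animals. On the SoNar-high array 44.8% of 43020 non-control spots were well above background, against 72.9% on the SoNar-low array, and the lowest such signal was 46.4 units on the SoNar-high array, against 19.7 units on the SoNar-low array. Of the 20618 genes, 5453 (26.4%) cleared background with SoNar-low RNA only, 11 with SoNar-high RNA only and 4631 (22.5%) with neither. The median of 10521 genes measured on both arrays was a difference of 0.22, and 66.9% of these genes lay above 0. The 2 arrays came from separate scan sessions, so the scan cannot be told apart from the population. Calls of 2-fold depended on the scaling: 35.4% of them were higher with this one, and between 6.67% and 96.0% with others.

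Promoter sequences are shown for the target genes because the receptor acts through DNA letters that can be looked for in them. Windows ran from 250 bases before to 50 bases after an annotated start, from RefSeq on build GRCm38.p6. They were used for 4 of the 6 members, with 7 windows, and 1 window per gene is printed here. For Tsc22d3 and Per1, which had more than 1 window, the printed window is the one that held a match. Windows of the receptor gene and of Zbtb16 were not used, so the matches counted below do not cover these genes. Searched on both strands were the receptor half-site AGAACA, which reads TGTTCT on the opposite strand, the full element made of both of these with any 3 bases between them (so that a full element is also counted as 2 half-sites), the E-box CACGTG that clock factors bind, and the cAMP response element TGACGTCA. Capitals mark a match.
Tsc22d3, chrX:140600473-140600772, minus strand: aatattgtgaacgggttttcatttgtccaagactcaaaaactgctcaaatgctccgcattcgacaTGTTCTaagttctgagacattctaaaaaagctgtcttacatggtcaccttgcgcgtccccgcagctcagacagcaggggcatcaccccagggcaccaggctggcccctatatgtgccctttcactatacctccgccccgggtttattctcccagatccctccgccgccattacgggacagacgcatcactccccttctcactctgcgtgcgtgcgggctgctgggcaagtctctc
Fkbp5, chr17:28486100-28486399, minus strand: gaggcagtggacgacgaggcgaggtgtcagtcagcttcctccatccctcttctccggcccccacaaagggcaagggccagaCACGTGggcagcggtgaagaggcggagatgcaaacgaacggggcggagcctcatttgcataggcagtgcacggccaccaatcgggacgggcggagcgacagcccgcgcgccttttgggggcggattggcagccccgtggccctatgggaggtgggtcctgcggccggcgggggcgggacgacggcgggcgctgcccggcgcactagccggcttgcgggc
Per1, chr11:69098699-69098998, plus strand: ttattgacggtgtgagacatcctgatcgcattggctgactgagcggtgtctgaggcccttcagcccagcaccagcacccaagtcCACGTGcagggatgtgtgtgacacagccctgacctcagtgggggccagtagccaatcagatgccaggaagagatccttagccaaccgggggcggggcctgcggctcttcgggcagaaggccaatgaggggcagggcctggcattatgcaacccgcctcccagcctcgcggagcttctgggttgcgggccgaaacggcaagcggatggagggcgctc
Klf9, chr19:23140976-23141275, plus strand: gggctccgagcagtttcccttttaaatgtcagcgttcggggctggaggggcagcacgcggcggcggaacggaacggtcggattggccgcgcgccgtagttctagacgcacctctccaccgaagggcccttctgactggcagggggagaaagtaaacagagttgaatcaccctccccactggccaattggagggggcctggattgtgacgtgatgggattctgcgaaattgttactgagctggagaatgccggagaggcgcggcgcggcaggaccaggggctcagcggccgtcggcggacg
The Tsc22d3 window held 1 half-site, which began 185 bases before the start. The Fkbp5 window held 1 E-box that began 169 bases before the start, and the Per1 window held 1 E-box that began 166 bases before it. The printed Klf9 window and the other 3 windows, of which 2 belong to Tsc22d3 and 1 to Per1, held no match, and 0 of the 7 windows held the full element or the cAMP element. Of all 32851 RefSeq promoter windows of this length, 19.0% held the half-site, 7.15% the E-box, 1.79% the cAMP element and 0.00913% the full element. These are matches of letters in a short window; enhancers farther away were not searched.

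All 7 probes were well above background on both arrays, so no member was seen on 1 array only. Of the 6 genes, 5 had a higher value on the SoNar-high array and Fkbp5 a lower one, and the same 5 lay above the median gene. Among all measured genes, 66.9% lay above 0. The differences ran from -0.10 for Fkbp5 to 0.89 for Klf9 with a median of 0.60, against 0.22 over all measured genes. The median difference varied with level: for probes of similar level to the members, given below, it ran from 0.11 to 0.45. None reached 2-fold: 0 of 6 were higher by this size and 0 of 6 lower, whereas 2.40% of all measured genes were called higher, 4.39% were called lower and 6.80% were past 2-fold either way. Before any scaling, 6 of the 7 probes were brighter on the SoNar-high array. The share of all probes that were brighter before scaling was not counted, so this number has no background beside it.

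**Figure D1:**
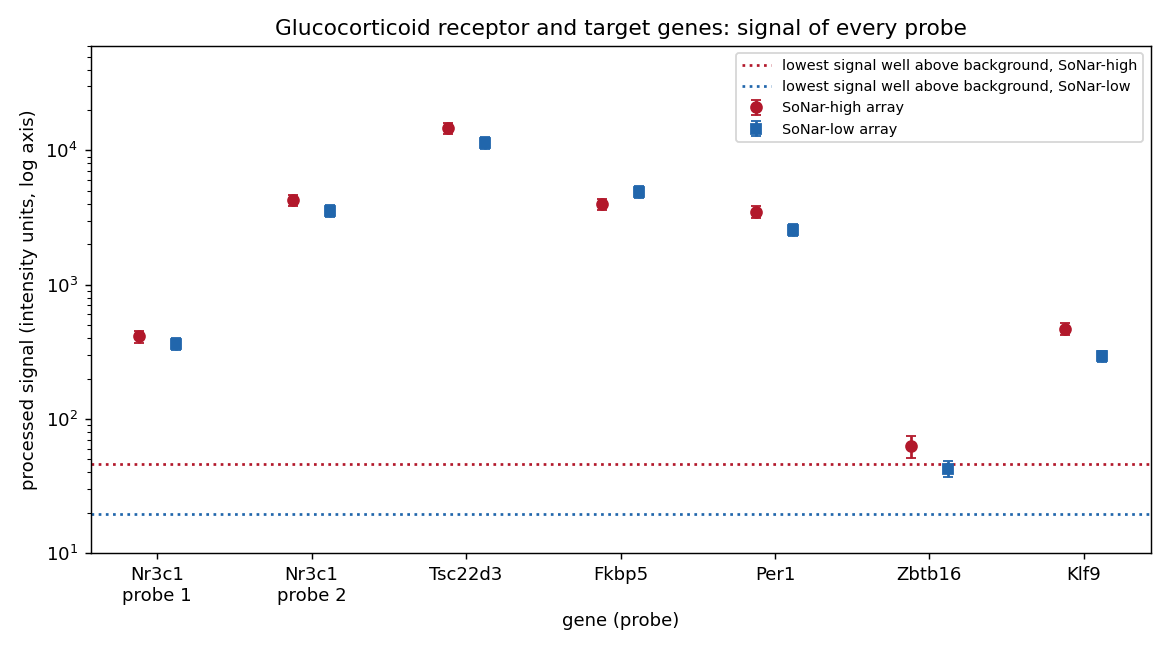
Processed signal in intensity units (log axis, not scaled between arrays) of each of the 7 probes on the SoNar-high array (red circles) and the SoNar-low array (blue squares). Bars are the scanner software's error of the spot, dotted lines the lowest signal well above background on each array; the red point is the higher one for every probe but that of Fkbp5, and only the Zbtb16 probe lies close to the dotted lines.

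Nr3c1 encodes the receptor itself and was the only member with more than 1 probe. The first Nr3c1 probe read 413 ± 42.5 units on the SoNar-high array and 362 ± 36.4 units on the SoNar-low array. The second Nr3c1 probe read 4262 ± 426 units on the SoNar-high array and 3547 ± 355 units on the SoNar-low array. Both were slightly brighter on the SoNar-high array. Their differences were 0.39 and 0.47, each with a software error of 0.21 and 0.20, and their mean was 0.43, a 1.35-fold difference with an SD of 0.05 between the 2 probes. The receptor gene stood at 0.21 above the median gene, with 67.4% of measured genes below it. The 1231 probes of similar level to the first probe had a median of 0.11. For the second, brighter probe the 764 probes of similar level had a median of 0.38, and 57.1% of them lay below it. Both probes are assigned to the same RefSeq transcript.

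Tsc22d3 encodes GILZ, a leucine zipper protein that carries much of the anti-inflammatory action of glucocorticoids by binding NF-kB and AP-1. Its probe read 14628 ± 1463 units on the SoNar-high array and 11432 ± 1143 units on the SoNar-low array. This was a difference of 0.56 (software error 0.20), a 1.47-fold higher signal on the SoNar-high array. The 410 probes whose level lay within 0.25 log2 units of that of Tsc22d3 had a median difference of 0.33. The spot was far from saturation and far above background on both arrays, at 316 times the lowest signal well above background with SoNar-high RNA and 581 times with SoNar-low RNA.

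Per1 encodes a repressor of the circadian clock whose gene is also switched on directly by the receptor. The Per1 probe read 3501 ± 350 units on the SoNar-high array and 2572 ± 257 units on the SoNar-low array. Its difference was 0.65 (software error 0.20), or 1.57-fold, and 83.7% of measured genes lay below it. The 863 probes of similar level had a median of 0.38.

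Klf9 encodes a zinc finger transcription factor that in many tissues is an immediate target of the receptor and also of thyroid hormone. The Klf9 probe read 471 ± 48.1 units on the SoNar-high array and 293 ± 29.6 units on the SoNar-low array. It had the largest difference of the 6 genes, 0.89 (software error 0.21), a 1.85-fold higher signal. Among all measured genes 95.1% lay below Klf9, and the 1209 probes of similar level had a median of 0.11.

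Zbtb16 encodes PLZF, a BTB zinc finger factor of innate-like lymphocytes and progenitors that is strongly induced by glucocorticoids in several human tissues. The Zbtb16 probe read 62.8 ± 11.7 units on the SoNar-high array and 42.4 ± 5.79 units on the SoNar-low array. These were the dimmest signals of the 7 probes, at 1.35 times the lowest signal well above background with SoNar-high RNA and 2.16 times with SoNar-low RNA. The difference was 0.77 (software error 0.33), or 1.70-fold, and the 314 probes of similar level had a median of 0.45. A probe at this level on the SoNar-high array entered the comparison only because it cleared that array's detection limit, so probes with the lower SoNar-high signals of this range are missing from it.

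Fkbp5 encodes FKBP51, the co-chaperone that feeds back on the receptor. The Fkbp5 probe read 3967 ± 397 units on the SoNar-high array and 4900 ± 490 units on the SoNar-low array. Fkbp5 was the 1 member with the lower signal on the SoNar-high array, and its difference of -0.10 was smaller than its software error of 0.20. It lay 0.33 under the median gene, and the 704 probes of similar level had a median of 0.39. Only with median scaling was the Fkbp5 difference above 0, at 0.46, and it was then still under that scaling's median gene of 0.79.

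Among neighbours in the order of the differences, Klf9, Zbtb16, Per1, Tsc22d3 and Nr3c1 were not resolved from each other. Their gaps were 0.12, 0.12, 0.09 and 0.13, against errors of the gap of 0.25 to 0.39 from the software's estimates. The gap of 0.53 between Nr3c1 and Fkbp5 was 2.12 times its error of 0.25, and that of 0.99 between Klf9 and Fkbp5 was 3.40 times its error of 0.29. These errors cover single spots only, and the spread between different probes of a gene was larger on these arrays, with a median SD of 0.32 over 2394 genes with several measured probes. Of 12 alternative processings, 6 could change the order of the 5 genes with 1 probe or leave some of them out. The others moved these genes alike or not at all. Among these 6 Fkbp5 was lowest in 6 and Klf9 highest in 3. The exceptions for Klf9 were quantile normalization and the series' value table, where Zbtb16 was higher, and the brighter 50% of probes, where neither Klf9 nor Zbtb16 had a value and Per1 was highest. The brighter 50% of probes left the values of Tsc22d3, Fkbp5 and Per1 as in the main setting. It could not reorder them, and Fkbp5 was bound to stay lowest there.

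**Figure D2:**
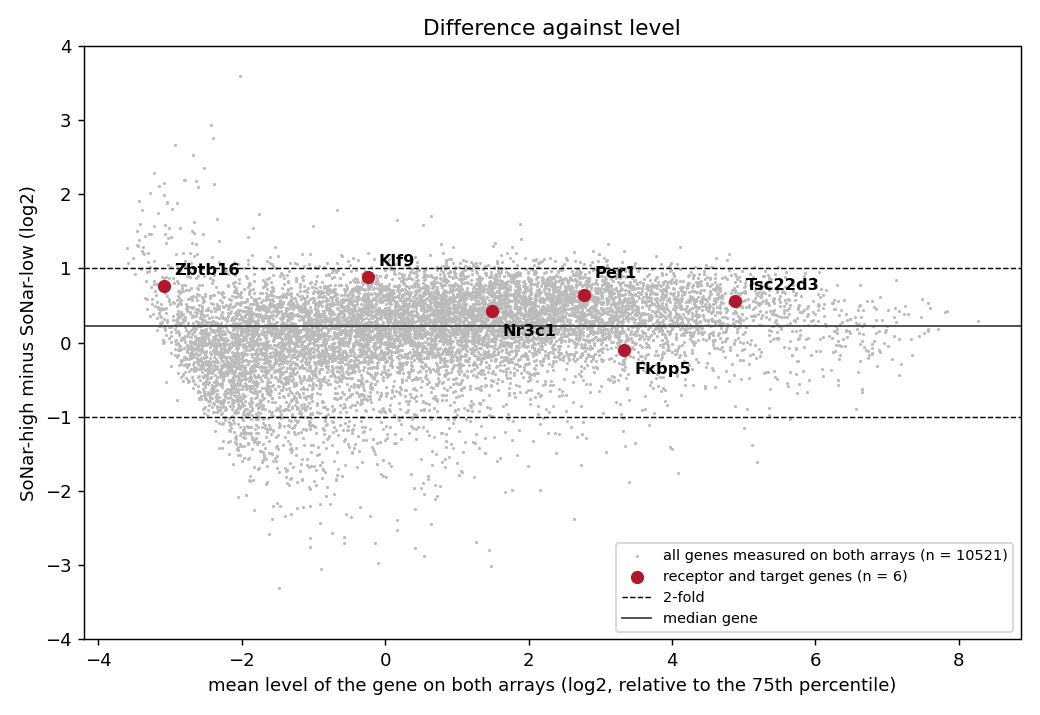
SoNar-high minus SoNar-low difference (log2) against the mean level on both arrays (log2, relative to the 75th percentile) for 10521 genes (grey) and the 6 members (red, named). Dashed lines mark 2-fold and the solid line the median gene at 0.22; all 6 members lie between the dashed lines, 5 above and Fkbp5 below the solid line.

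**Figure D3:**
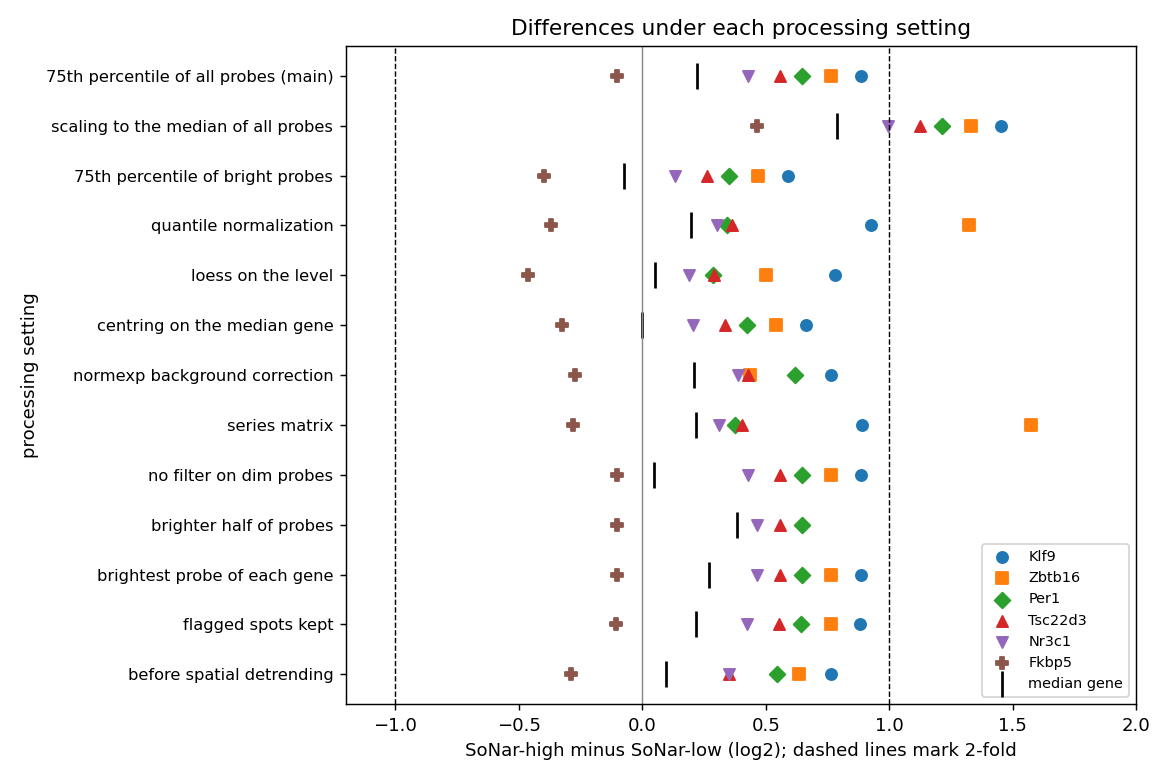
Difference (log2) of each member under 13 processing settings, with the median gene of each setting as a black bar and dashed lines at 2-fold. Fkbp5 is the leftmost member in every setting, and scaling to the median of all probes shifts every gene to the right by 0.57. That puts 4 members past 2-fold, beside 3380 of all 10521 genes higher by this size.

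Genes that prepare the receptor for ligand were taken next, from lists of which 229 genes with a probe and 151 genes measured on both arrays make up the surroundings of the receptor. Of these 151, 3 (1.99%) were higher and 5 (3.31%) lower by 2-fold or more, beside 2.40% and 4.39% of all genes. Of 14 measured chaperone genes 8 lay above the median gene, with a list median of 0.25. The HSP90 genes Hsp90aa1 (0.32) and Hsp90ab1 (0.05) differed little. Highest were Cdc37 (0.78), a kinase-specific HSP90 co-chaperone, and Dnajb1 (0.74), a J protein. Lowest were Hspa8 (-0.39), the constitutive HSP70, and Stip1 (-1.05), the adaptor that passes clients from HSP70 to HSP90 and the 1 chaperone gene past 2-fold, by 1 probe. Fkbp4, which encodes FKBP52, the counterpart of FKBP51 in the receptor complex, stood at 0.13.

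Genes of ligand supply and efflux were mostly dim. Hsd11b1, which regenerates active glucocorticoid inside cells, cleared background with SoNar-low RNA only and was at least 2.16-fold lower with SoNar-high RNA. Every bound given here and below holds for the main scaling only. The drug efflux pump gene Abcb1a was likewise at least 2.17-fold lower. Nr3c2, the mineralocorticoid receptor gene, was seen on the SoNar-low array only, with a bound under 1 and so no fold, and Hsd11b2 and Akr1d1 were not well above background on either array. The 3 genes measured on both arrays were Srd5a1 (0.62), Abcb1b (0.35) and H6pd (0.30).

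Coregulator genes had a median of 0.14 over 19 measured genes, 9 of them above the median gene. Ehmt2, a histone H3 lysine methyltransferase that the receptor uses as coactivator and corepressor, was past 2-fold higher, at 1.12. Ncoa2, which encodes the coactivator GRIP1, was just under 2-fold at 0.99. Hdac3 (0.54) followed some way below. Lowest were the chromatin remodelling subunit gene Smarcd1 (-0.44) and the acetyltransferase gene Ep300 (-0.73). The coactivators and corepressors did not share 1 direction.

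A wider list of 40 genes induced through the receptor, of which 29 were measured on both arrays, was mixed in direction. Of the 29, 15 lay above and the other 14 below the median gene, and the list median was 0.30. Ehd3, an endocytic recycling gene, was past 2-fold higher, at 1.32, and the G protein regulator gene Rgs2 and the metallothionein gene Mt2 followed at 0.94 each. Lowest were Fam107a (-1.31) and the tyrosine aminotransferase gene Tat (-1.85), a classical liver target, both past 2-fold lower. Ehd3, Fam107a and Tat each rested on 1 measured probe. On the SoNar-high array Tat (-2.77) and Ehd3 (-1.98) were dim, relative to the 75th percentile in log2. That array's lowest signal well above background was -3.14 in these units. The kinase gene Sgk1 (0.09), the phosphatase gene Dusp1 (0.21) and Bcl2l11 (-0.21), which encodes the death protein BIM that glucocorticoids raise in lymphoid leukaemia, were all within 0.25 log2 units of 0. All of them lay below the median gene of 0.22, Dusp1 only just. Of the 40, 7 cleared background with SoNar-low RNA only, Per2 among them, and 4 with neither, Il7r among them, beside 26.4% and 22.5% of all genes. Lcn2 (-0.91), a neutrophil granule gene, is both on this list and among the neutrophil markers below.

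**Figure D4:**
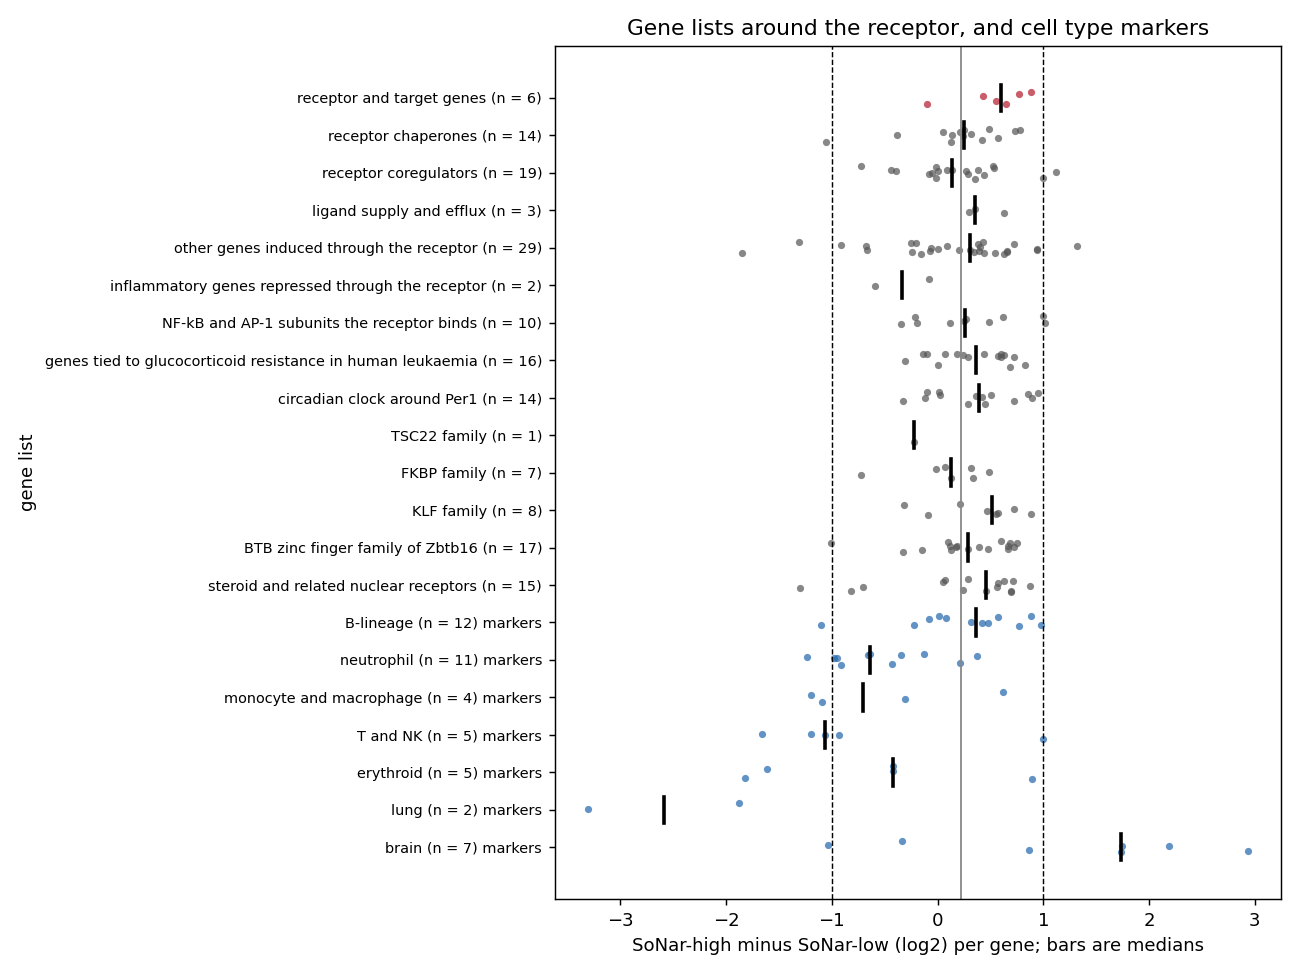
Difference (log2) of every gene measured on both arrays in each list, with the list median as a black bar, the median gene as a grey line and 2-fold as dashed lines. The 6 members (red, top) have a median of 0.60; pathway lists are grey and cell type marker lists blue, with lung markers farthest left and brain markers farthest right.

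Genes repressed through the receptor could hardly be read. Of 20 inflammatory genes 2 were measured on both arrays, the chemokine gene Ccl4 (-0.08) and the adhesion gene Icam1 (-0.59). Another 9 cleared background with SoNar-low RNA only and 9 with neither, beside 26.4% and 22.5% of all genes. The highest bound among those seen with SoNar-low RNA only was that of Nos2, at least 2.29-fold lower with SoNar-high RNA. The NF-kB and AP-1 subunits that the receptor holds in check had a median of 0.26 over 10 genes, with Jund just past 2-fold higher (1.01), Jun at 1.00 just under that size, and Junb (-0.21) and Nfkb2 (-0.34) lowest. Of 16 measured genes that are tied to glucocorticoid resistance in human leukaemia 10 lay above the median gene and 0 were past 2-fold, from the mismatch repair gene Msh6 (0.83) and the antiproliferative gene Btg1 (0.72) to the methyltransferase gene Kmt2d (-0.14) and the inflammasome gene Nlrp3 (-0.31). Casp1, whose protease cleaves the receptor in human leukaemia cells, stood at 0.57.

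The clock genes around Per1 had a median of 0.39 over 14 measured genes, of which 9 lay above the median gene and 0 past 2-fold. Clock (0.95), which encodes one partner of the activating heterodimer, and the output gene Tef (0.89) were highest. Arntl (-0.12), the gene of the other partner of that heterodimer, and the repressor gene Cry1 (-0.32) were lowest. Per1 at 0.65 lay within the range of these genes, and its paralogue Per2 was seen on the SoNar-low array only and Per3 on neither array.

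The cell type of the sort was checked against markers. Of 16 B-lineage genes 12 were measured on both arrays, with Ebf1 (0.98) and Ms4a1 (0.88) highest and Ptprc (-0.22) and Cd22 (-1.10) lowest, whereas the pre-B and recombination genes Igll1, Rag1 and Rag2 were not well above background on either array. The summed scaled signal of the B-lineage probes was 137 with SoNar-high RNA and 108 with SoNar-low RNA, in units of each array's 75th percentile. This sum and those that follow take in every kept probe of a list, also probes not well above background. Markers of other marrow cells mostly stood lower on the SoNar-high array: of the measured genes 1 of 11 neutrophil, 1 of 4 monocyte and macrophage, 1 of 5 T and NK cell and 1 of 5 erythroid genes lay above the median gene, beside 7 of 12 B-lineage genes. Their summed signals were 47.8, 1.65, 6.31 and 59.2 on the SoNar-high array, against 57.3, 2.73, 7.49 and 36.5 on the SoNar-low array, so the erythroid sum went the other way. That sum was mostly Hemgn, a nuclear protein gene of blood progenitors, at 55.7 with SoNar-high RNA and 30.1 with SoNar-low RNA; without it the erythroid sum was 3.51 with SoNar-high RNA and 6.39 with SoNar-low RNA. Lung markers were lower (2 of 2 measured genes by 2-fold or more, summed signal 0.579 with SoNar-high RNA and 4.36 with SoNar-low RNA). Of 7 measured brain markers 4 were called higher and 1 lower, and their sum was 5.60 with SoNar-high RNA and 5.36 with SoNar-low RNA. Without its brightest gene the brain sum was 4.24 with SoNar-high RNA and 2.58 with SoNar-low RNA. Receptor target genes are also expressed in these other cell types and tissues. The part of other cells in the members' differences was not tested, and fewer cells of a type cannot be told apart from less RNA per cell.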

How the data were processed

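Per the labels' protocols, Cy3-labelled RNA of both sorted populations went on 1 array each. The deposited files of the scanner hold spot intensity values extracted with Agilent Feature Extraction 11.0.1.1, per the file headers; the submitters' processing notes name version 9.1. The authors' series matrix holds log2 values with equal quartiles in both columns and was an alternative. Nothing beyond this was given in the sources used here on how it was made.

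Control spots and flagged outlier spots were left out and replicate spots averaged as log2 values, leaving 39085 probes. Each array's 75th percentile over probes was subtracted. Accessions were matched, without versions, to symbols of a RefSeq gene table of GRCm38.p6, used for names only: 27115 probes matched and 11970 did not. A gene's difference averages the probes that cleared background on both arrays, and 2-fold is a rule of size without a p-value. Genes seen on 1 array got a bound against the other array's lowest signal well above background or the dim probe's own, whichever was higher. Bounds were computed with the main scaling only. Median scaling, which moves every gene by 0.57 towards SoNar-high, would make those of genes seen with SoNar-low RNA only smaller. The spread between repeated spots came from 191 probes with at least 8 kept spots on each array, with a median SD (log2) of 0.13 for SoNar-high and 0.06 for SoNar-low; the number of arrays limits the precision.

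The members and gene lists were chosen with earlier results of these data known. Named beside the members were the 2 highest and 2 lowest measured genes of each list and 10 fixed genes (Sgk1, Dusp1, Bcl2l11, Nr3c2, Hsd11b1, Hsp90aa1, Hsp90ab1, Ncoa2, Ptprc and Ebf1); of the marker lists other than the B-lineage one only counts and summed signals are given, and further genes named in the text were chosen after their values were seen. With 2 arrays no genes of like pattern were sought. On simulated data for this comparison, over 10521 genes, 100 of 100 genes raised and 100 of 100 lowered 3-fold were called; the noise was that of repeated spots alone, with an SD of 0.10 against 0.32 between probes of a gene, so this checks the arithmetic and not the power. Tools were limma 3.58.1 in R 4.3.3, and matplotlib 3.10.9, statsmodels 0.14.6, pandas 2.3.3 and numpy 2.4.6 in Python 3.11.15.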

Additional observations from a re-analysis of the deposited data

How the results depend on the processing

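Under 12 alternative processings the 5 members above 0 stayed above 0 and above the median gene wherever they were measured, while Fkbp5 lay below 0 in 11 and above it in 1. Of the 12, 3 (median scaling, the 75th percentile of bright probes and centring) move all genes by 1 constant, so a position against the median gene cannot change under them. No filter on dim probes, the brighter 50% of probes and the brightest probe of each gene leave a measured member with 1 probe at its main value. Its sign cannot change under them. Keeping flagged spots hardly moved the members either (Per1 0.643 against 0.646). Scaling to the median of all probes, which moved every gene by 0.57, put Klf9 at 1.45, Zbtb16 at 1.33, Per1 at 1.21, Tsc22d3 at 1.12, Nr3c1 at 1.00 and Fkbp5 at 0.46. With it 4 members passed 2-fold, beside 3380 higher calls over all 10521 genes. The 75th percentile of bright probes (those that cleared background on both arrays) put Nr3c1 at 0.13, centring on the median gene at 0.21, the signal before spatial detrending, added after seeing the data, at 0.35, loess at 0.19, quantile normalization at 0.30 and the series matrix at 0.31. Loess put Per1 at 0.28 and Fkbp5 at -0.46. Zbtb16, the dimmest probe, moved most: 0.44 with normexp, 1.32 with quantile normalization and 1.57 in the series matrix. In each of the last 2 it was the 1 member past 2-fold, beside 348 and 430 higher calls over all 10521 genes. With the brighter 50% of probes Klf9 and Zbtb16 had no value. A threshold of 1.5-fold held 3 members higher and 0 lower, beside 2145 higher and 1070 lower of all 10521 genes. Calling background at 3 SD of negative controls left 0 members seen on 1 array only. This cut, at 17.3 net units with SoNar-high RNA and 14.45 with SoNar-low RNA, is looser than the main call. All members had passed the main call, so the looser cut could not give another result.
Over all genes, 253 higher and 462 lower calls became 3380 and 140 with median scaling, 61 and 853 with the 75th percentile of bright probes, 118 and 530 with loess, 70 and 742 with centring on the median gene, 72 and 241 with normexp, 430 and 359 with the series matrix, 1885 and 2542 with no filter on dim probes, 141 and 111 with the brighter 50% of probes, 124 and 631 with the signal before detrending, 2145 and 1070 with 1.5-fold and 31 and 133 with 3-fold. Over the listed genes, 3 higher and 5 lower calls became 56 and 1 with median scaling, 1 and 9 with the 75th percentile of bright probes, 1 and 8 with loess, 1 and 7 with centring on the median gene, 0 and 3 with normexp, 13 and 30 with no filter on dim probes, 2 and 2 with the brighter 50% of probes, 1 and 6 with the signal before detrending, 37 and 13 with 1.5-fold and 0 and 1 with 3-fold.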

Other observations

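The families of the members were read from the same arrays. The receptor's relatives among the nuclear receptors had a median of 0.46 over 15 measured genes, 10 of them above the median gene. Highest were Nr4a1 (0.88), an immediate early orphan receptor, and the estrogen-related receptor gene Esrra (0.71). Lowest were the estrogen receptor gene Esr2 (-0.82) and the fatty acid sensor gene Ppara (-1.30), the 1 of the 15 past 2-fold. Pparg, seen on the SoNar-low array only, was at least 2.19-fold lower with SoNar-high RNA.

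KLF genes other than Klf9 had a median of 0.51 over 8 measured genes and none past 2-fold. Klf10 (0.89) stood as high as Klf9 and Klf7 followed at 0.72, while Klf16 (-0.09) and Klf11 (-0.32) were lowest. Among the relatives of Fkbp5 the median was 0.13 over 7 genes. Highest were Fkbp2 (0.48) and Fkbp8 (0.34), lowest Fkbp1a (-0.02), the FK506 target FKBP12, and Fkbp15 (-0.73). Fkbp11, seen on the SoNar-low array only, was at least 2.49-fold lower with SoNar-high RNA. BTB zinc finger genes related to Zbtb16 had a median of 0.29 over 17 genes, with Zbtb40 (0.76) and Zbtb32 (0.72) highest, Patz1 (-0.32) low and Zbtb7b, the helper T cell factor gene, lowest at 0.499 of its SoNar-low level. Of the TSC22 relatives of Tsc22d3, Tsc22d4 stood at -0.23 by 3 probes, and Tsc22d2, seen on the SoNar-low array only, was at least 4.42-fold lower with SoNar-high RNA.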
